A study of Mus musculus with 7 samples.

Results

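The genes described here encode the proteins of the cytosolic ribosome, the particle that translates nuclear-encoded mRNA. They were selected by symbol alone: Rpl or Rps followed by a number and no more than a few of the letters a, x, y and l, together with Rplp0, Rplp1, Rplp2 and Rpsa, leaving out symbols that end as pseudogene copies. This rule took 84 of the 27179 counted genes, 52 of the large (60S) subunit and 32 of the small (40S) subunit. No measured value entered the selection. RNA came from the marrow-flushed femoral cortical bone of 12-week-old female C57BL/6 mice. In 3 mice labelled Dmp1Cre.EfnB2f/f, Cre recombinase driven by a Dmp1 promoter fragment targeted floxed Efnb2, the gene of the membrane ligand EphrinB2, in late osteoblasts and osteocytes. The 4 controls were Dmp1Cre mice with the same transgene and no floxed allele, so Cre itself was shared by both groups. The libraries are called labelled f/f and control here. The Cre was thus directed at one cell lineage, while the RNA came from every cell that the flushed bone still held. The calcein injections and fasting in the study's mouse methods are not tied there to the RNA mice.

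A ribosome is built from ribosomal RNA and one copy of most ribosomal proteins, so the genes of this family are usually transcribed at high and matched levels in growing cells. Many of their mRNAs begin with a 5' terminal oligopyrimidine (TOP) motif, a C followed by a run of C and T, through which mTORC1 and LARP1 adjust their translation. In bone, osteoblasts secrete large amounts of collagen and depend on high translation, and inherited loss of single ribosomal proteins, as in Diamond-Blackfan anaemia, affects erythroid cells and the skeleton. Because mature mRNA was counted, the values below are transcript levels and not ribosome number or translation.

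TOP motifs were looked for at the annotated starts, since such starts are the common regulatory feature of the family. The start region of 62 members was found in the RefSeq promoter windows (GRCm38.p6, 250 bases before to 50 after the start). A C at the start base followed by at least 4 C or T, on the gene's strand, was present in 14 of them, or 22.6%, against 3.01% of 27025 genes with a window. A run of 8 C or T within 25 bases of the start was present in 53.2% of the members and 22.3% of all genes.

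The starts of 6 of these genes are shown because their levels are compared between the genotypes and they carry the motif. They are Rplp2 (chr7:141447641-141447665, plus strand), Rps10 (chr17:27635230-27635254, minus strand), Rps6 (chr4:86857353-86857377, minus strand), Rps18 (chr17:33955651-33955675, minus strand), Rpl28 (chr7:4792955-4792979, plus strand) and Rps27 (chr3:90213634-90213658, minus strand) of GRCm38.p6. Each is 25 bases, 5' to 3' on the gene's strand, and capitals mark the pyrimidine run that opens the transcript.
Rplp2: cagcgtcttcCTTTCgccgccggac
Rps10: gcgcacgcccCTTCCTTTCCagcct
Rps6: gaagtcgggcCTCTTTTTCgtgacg
Rps18: cacttccgctCTCTCTTCCacagga
Rpl28: tctcgtgtctCTCTTTCCgtctccg
Rps27: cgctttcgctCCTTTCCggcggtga
The runs were 5 bases long in Rplp2, 10 in Rps10, 9 in Rps6 and Rps18, 8 in Rpl28 and 7 in Rps27.

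The 7 libraries held 17245556 to 22075778 counts. Efnb2 had 322, 239 and 224 counts in the libraries labelled f/f and 164, 139, 110 and 117 in the controls. These counts show no loss and were higher in every library labelled f/f than in any control. The log2 fold change, labelled f/f over control, was 0.68 to 1.14 over the alternative fits described below. Counts over the whole gene and over all cells of the bone separate neither the floxed part nor the targeted cells. By PCR of the targeted region the study reported the loss in sorted osteocytes of separate reporter mice, with Efnb2 kept in non-osteocytic cells. Parent cross was not balanced: labelled f/f 1 and 2 came from one cross, controls 1 and 2 from another, control 4 from a further one, and only labelled f/f 3 and control 3 shared a cross. Defining genes of osteocytes and osteoblasts were present in every library, and so were those of other cells. Summed erythroid markers (11 of the 13 listed genes were in the files) were 9636 to 18138 CPM (counts scaled to library size) in the libraries labelled f/f and 20754 to 55196 CPM in the controls. The corresponding ranges were 12263 to 15291 and 17619 to 20599 CPM for 12 granulocyte markers, 26390 to 39309 and 12836 to 27847 CPM for 12 skeletal muscle markers, and 14434 to 23600 and 13810 to 68628 CPM for 12 osteocyte and osteoblast markers. No gene of these lists was at 0 in any library. Fewer cells of a type and less RNA per cell cannot be told apart in such samples.

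To ask how the family as a whole stood in each bone, its counts were summed. The 84 genes took 0.787%, 0.833% and 0.888% of all counts in labelled f/f 1, 2 and 3, and 1.04%, 0.889%, 0.827% and 1.30% in controls 1 to 4. Control 4 was highest, control 1 second, and controls 2 and 3 lay within or next to the range of the libraries labelled f/f, so the groups overlapped. The means were 0.836% ± 0.0509 (SD, n = 3) and 1.01% ± 0.212 (SD, n = 4), a difference of -0.179 percentage points that was smaller than the SD of the controls. Without control 4 the difference was -0.0823 points. Without the erythroid marker counts it was -0.198 points, and the share in control 4 was then 1.37%. The summed 60S counts were 1.65 ± 0.0174 (SD, n = 3) times the 40S counts in the libraries labelled f/f and 1.59 ± 0.0510 (SD, n = 4) times in the controls, so both subunits contributed in nearly the same proportion in every library.

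**Figure D1:**
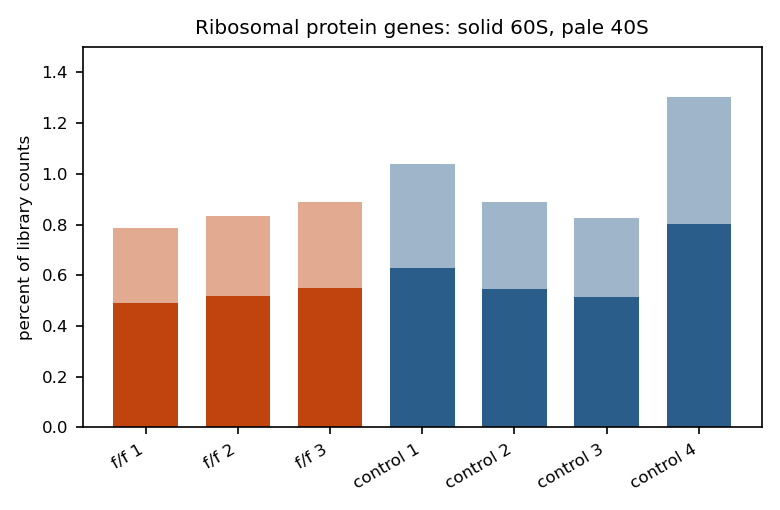
Share of each library's counts (percent, linear axis from 0) taken by the ribosomal protein genes, with 60S genes solid and 40S genes pale, for the 3 libraries labelled Dmp1Cre.EfnB2f/f (f/f, red) and the 4 controls (blue). Each bar is 1 library, and the bars run from 0.787% in f/f 1 to 1.30% in control 4.

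Of the 84 genes, 83 had counts in every library, 39 averaged over 1000 counts and 10 averaged under 100. After the filter on low values and gene classes, 80 were tested, 49 of the 60S and 31 of the 40S subunit, among 15098 genes in all. The 4 genes not tested were Rpl10l, the testis-expressed retrogene of Rpl10, with 0 counts in all libraries; Rpl39, with 2, 5 and 2 counts against 6, 2, 9 and 12; and Rpl6l and Rps4l, which RefSeq types as pseudogenes. A library with 0 counts of Rpl10l allows up to 0.136 to 0.174 CPM (3 counts, counting error only).

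Levels per transcript length differed widely within the family. The highest mean levels over the 7 libraries were 1264 CPM per kb for Rplp1 and 617 CPM per kb for Rplp0, both proteins of the stalk that recruits elongation factors, 967 for Rpl41, the smallest ribosomal protein, 861 for Rpl8 and 626 for Rpl32. The lowest among genes with counts were 0.723 CPM per kb for Rpl39, 1.51 for Rpl39l, 2.90 for Rpl13 and 5.66 for Rps13. The highest level was 1750 times the lowest, although the assembled ribosome holds most of these proteins in equal number.

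Ribosomal protein mRNAs have left many processed pseudogene copies in the mouse genome, and a read that matches several places may not be assigned to its source. The share of 100-base windows of each transcript that occur unchanged in another gene (GENCODE M21) was above 0 for 73 of the 83 genes with a transcript there. The median level was 144 CPM per kb for the 31 genes with under 25% of windows shared, 69.8 for the 39 genes from 25 to 75%, and 11.8 for the 13 genes above 75%. Rpl10, a subunit-joining protein, had 91.6% of windows shared and 16.7 CPM per kb. Rps6, the substrate of the S6 kinases, had 83.6% shared and 12.7 CPM per kb, whereas Rps3, with 0% shared, had 365 CPM per kb and Rpl32, also with 0% shared, 626. Across the 80 tested genes the share of windows and the level per kb had Pearson's r = -0.47 and Spearman's rho = -0.48, a description over genes of the same libraries. Rpl39 was low with only 1.75% of windows shared. How reads with several matches were counted is not given in the sources used here, so levels of genes with many copies, and differences between such genes, are uncertain.

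**Figure D2:**
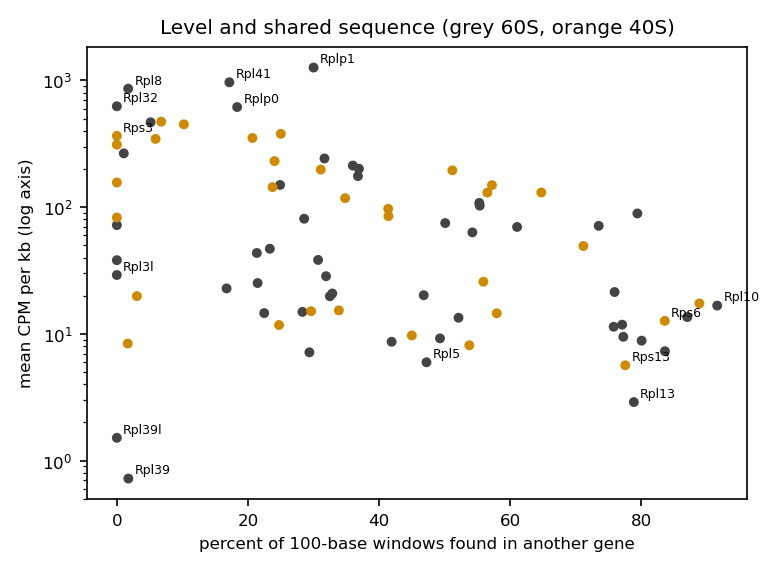
Mean level per transcript length (CPM per kb, log axis) against the percent of a transcript's 100-base windows found unchanged in another gene, for the genes with counts and a transcript (grey 60S, orange 40S, 1 point per gene). Rplp1, Rpl41 and Rpl8 lie at the top and Rpl39 and Rpl39l at the bottom left, and all 13 genes above 75% lie at or under 89.2 CPM per kb.

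To compare the genotypes, each gene was tested with edgeR's quasi-likelihood test across all 15098 genes. At an adjusted p under 0.05, 0 of the 80 ribosomal protein genes differed, as did 0 of all genes tested (percent called 0). At an unadjusted p under 0.05 there were 5 ribosomal protein genes, or 6.25%, against 9.66% (1459) of all genes. Of the 5, Rps9, Rps2, Rplp2 and Rps10 were lower in the libraries labelled f/f (5.03% of all genes were lower at this p), and Rpl3l was higher (4.63% of all genes were). Each had an edgeR adjusted p of 0.511. The count of 5 depended on single libraries. It was 1 without labelled f/f 1, 2 without labelled f/f 2, 3 without control 1, 9 without control 2, 17 without control 3 and 3 without control 4. The share of all genes at this p moved as well, to 2.84%, 3.88%, 11.3%, 10.8%, 15.8% and 6.38% in the same order.

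Rps9, a protein of the 40S mRNA entry side, measured 166, 177 and 216 CPM in the libraries labelled f/f and 361, 244, 247 and 456 CPM in the controls. Its groups did not overlap, and controls 4 and 1 were the highest. The log2 fold change, labelled f/f over control, was -0.81 (SE 0.27, edgeR unadjusted p = 0.0143), and a two-sided exact permutation test over the 35 ways to place the 3 labels gave p = 0.0857, where 0.0286 is the smallest p possible. Within the one cross with both genotypes, the difference between labelled f/f 3 and control 3 was -0.20 (log2).

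Rps2, also at the mRNA entry channel of the 40S subunit, measured 65.8, 74.8 and 104 CPM in the libraries labelled f/f and 206, 117, 94.2 and 251 CPM in the controls. It had the largest negative log2 fold change of the family, -1.03 (SE 0.36, edgeR unadjusted p = 0.0187), yet labelled f/f 3 was above control 3 and the exact permutation p was 0.143. Of its windows 64.7% occurred in other genes, and its row overlaps Snhg9, a snoRNA host gene. The counting strand is not given, so reads of the overlapping genes cannot be told apart.

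Rplp2, a stalk protein, measured 69.2, 66.7 and 79.3 CPM against 113, 85.0, 81.9 and 163 CPM, with a log2 fold change of -0.62 (SE 0.25, edgeR unadjusted p = 0.0379, exact permutation p = 0.114). Rps10, a 40S protein mutated in some cases of Diamond-Blackfan anaemia, measured 19.7, 22.1 and 21.7 CPM against 33.8, 24.3, 23.5 and 53.2 CPM, with a log2 fold change of -0.67 (SE 0.29, edgeR unadjusted p = 0.0486, exact permutation p = 0.171). In both genes every library labelled f/f was below every control, but controls 2 and 3 lay close to the libraries labelled f/f, and most of the difference in means came from controls 1 and 4. Groups that did not overlap were found for 5 lower genes, Rps9, Rplp2, Rps10, Rpl13a and Rpl12, or 6.25% of the 80, where 6.3% of all genes tested were of this kind. Only Rpl3l had every library labelled f/f above every control, or 1.25%, against 5.05% of all genes. Neither share was above that of genes in general.

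**Figure D3:**
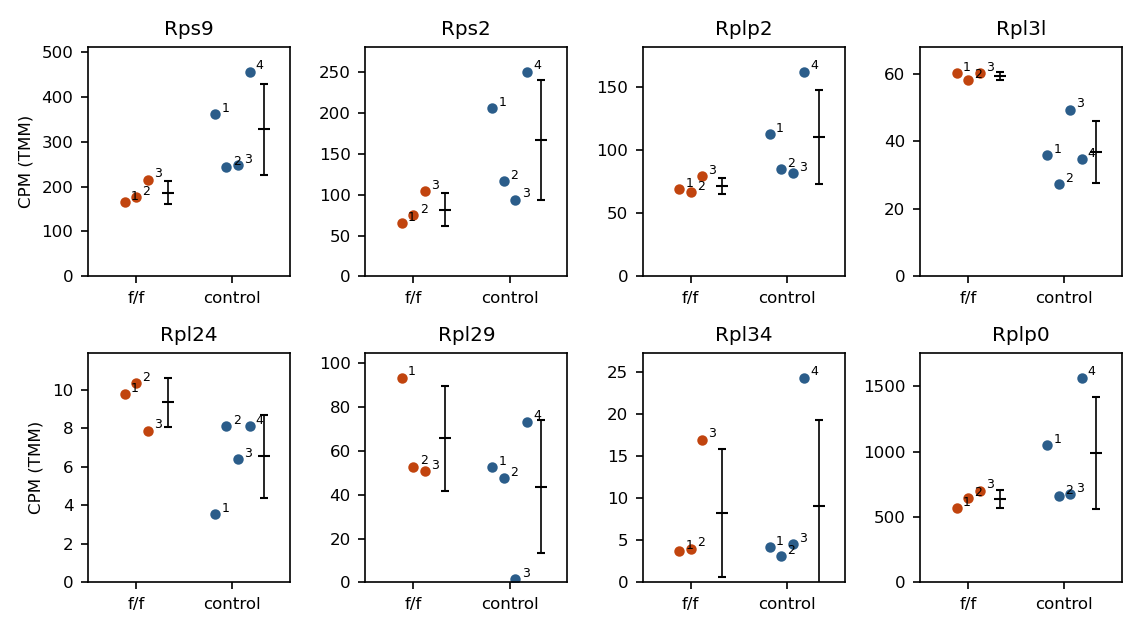
TMM-normalized level (CPM, linear axes from 0) of 8 ribosomal protein genes in each library (f/f for libraries labelled Dmp1Cre.EfnB2f/f, red; controls, blue; numbers are replicates), with the mean and SD of each group as a black bar. Control 4 is the highest library for Rps9, Rps2, Rplp2, Rpl34 and Rplp0, Rpl3l alone has all 3 f/f libraries above the controls, and Rpl29 in control 3 lies near 0.

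Rpl3l was the gene of the family with the lowest unadjusted p, and it went the other way. It is the striated-muscle paralog of Rpl3, which sits near the peptidyl transferase centre. Rpl3l measured 60.1, 58.0 and 60.1 CPM in the libraries labelled f/f and 35.9, 27.5, 49.3 and 34.8 CPM in the controls, or 0.69 higher on the log2 scale (SE 0.20, edgeR unadjusted p = 0.00851, exact permutation p = 0.0571). Rpl3 measured 93.5, 103 and 111 CPM against 133, 106, 115 and 189 CPM. Per length, Rpl3l made up 35.4%, 32.5% and 31.5% of the pair in the libraries labelled f/f and 18.8%, 18.1%, 26.8% and 13.6% in the controls (33.1% ± 2.02, n = 3, against 19.3% ± 5.47, n = 4, exact permutation p = 0.0571). However, 79.4% of the windows of Rpl3 occur in other genes against 0% for Rpl3l, so the size of these shares is uncertain. Control 3, the control with the most Rpl3l, also had the highest sum of skeletal muscle markers among the controls, 27847 CPM against 12836 to 14008 CPM in the others. Other libraries did not follow this order. Labelled f/f 1 had a lower marker sum than control 3, 26390 CPM, but more Rpl3l. Labelled f/f 2 had the highest sum, 39309 CPM, but the least Rpl3l of its group. All 12 of those markers had higher means in the libraries labelled f/f. Of them 5, or 41.7%, had an unadjusted p under 0.05, against 9.66% of all genes. The part of muscle RNA in the Rpl3l difference was not tested. Between labelled f/f 3 and control 3, of one cross, the Rpl3l difference was 0.28 (log2). The fit with parent cross as a block rests on these same libraries for the genotype, so its 0.28 is not a separate result.

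In the other paralog pairs the shares of the groups overlapped. Rps27l, a paralog of Rps27 induced by p53, made up 84.8% ± 3.20 (n = 3) of its pair per length in the libraries labelled f/f and 85.3% ± 2.36 (n = 4) in the controls (exact permutation p = 0.800). Here 57.9% of the windows of Rps27 occur in other genes against 0% for Rps27l, so the size of this share is uncertain. Rpl36al made up 92.2% ± 1.43 and 91.2% ± 0.892 of the pair with Rpl36a (exact permutation p = 0.343), but 83.6% of the windows of Rpl36a occur in other genes against 28.6% for Rpl36al. Rpl22l1, an alternative to Rpl22 that the symbol rule leaves out, made up 23.0% ± 2.74 and 22.5% ± 6.05 of its pair (exact permutation p = 0.857), and Rpl7l1 8.64% ± 0.600 and 10.8% ± 2.32 of the pair with Rpl7 (exact permutation p = 0.257). Rpl39l, best known from testis, had 19, 16 and 41 counts against 38, 16, 8 and 28, and Rpl39 had so few counts that their ratio was not read. The row Rps4l made up 6.09% ± 0.531 and 7.04% ± 2.99 of the pair with Rps4x (exact permutation p = 0.943).

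Several abundant genes of the stalk and core shared a pattern, with control 4 highest, control 1 second and the other 5 libraries close together. Rpl4, a core protein of the large subunit and as abundant as these, did not, since it measured 629, 658 and 674 CPM against 605, 644, 677 and 767 CPM, with control 1 lowest. Rplp0, often used as a reference gene in PCR, measured 568, 647 and 702 CPM in the libraries labelled f/f and 1053, 662, 672 and 1566 CPM in the controls. The log2 fold change was -0.63 (SE 0.34, edgeR adjusted p = 0.517), and controls 2 and 3 lay within the range of the libraries labelled f/f. Rplp1 measured 441, 496 and 514 CPM against 745, 483, 486 and 975 CPM. Rpl8 measured 512, 578 and 607 CPM against 922, 588, 589 and 1401 CPM. Rps3, which takes part in mRNA entry and in DNA repair, measured 489, 544 and 583 CPM against 876, 570, 556 and 1184 CPM. Rpl13a, a part of the interferon-induced GAIT complex, measured 184, 214 and 208 CPM against 354, 224, 217 and 507 CPM, so that here the groups were just apart (log2 fold change -0.69, SE 0.31, edgeR adjusted p = 0.511). None of these genes passed the test.

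Genes linked to human disease or to p53 followed several patterns, and none of those named here passed the test. Rpl5 and Rpl11 bind MDM2 when ribosome assembly fails. Rpl5 measured 15.1, 15.2 and 13.0 CPM against 6.41, 14.7, 13.7 and 6.31 CPM, so controls 1 and 4 were less than the other 5 libraries, the reverse of the pattern of Rplp0. Its log2 fold change was 0.49 (SE 0.33, edgeR adjusted p = 0.555), and its row overlaps Fam69a. Rpl11 had means of 5.58 ± 0.147 (SD, n = 3) and 5.68 ± 1.61 CPM (SD, n = 4). Rps19, the gene most often mutated in Diamond-Blackfan anaemia, had means of 62.0 ± 5.84 and 60.3 ± 16.2 CPM. Rps14, whose loss causes the anaemia of the 5q- syndrome, had means of 171 ± 7.42 and 239 ± 92.9 CPM. Rpl38, which mouse skeletal patterning depends on, had means of 2.76 ± 0.398 and 3.53 ± 1.25 CPM. Rpl26, which also binds Trp53 mRNA, had means of 96.4 ± 5.31 and 94.9 ± 13.5 CPM, and Rpl10 of 13.7 ± 0.512 and 13.0 ± 1.15 CPM. Rpl22 measured 137, 136 and 139 CPM against 149, 135, 140 and 195 CPM, with control 4 alone outside a narrow range. Rps6 measured 15.8, 18.3 and 16.2 CPM against 13.6, 19.2, 17.9 and 22.7 CPM. Rps27a, made as a fusion with ubiquitin, had means of 6.84 ± 0.945 and 6.56 ± 1.29 CPM, and Rpsa, the laminin receptor precursor, of 287 ± 27.1 and 429 ± 175 CPM.

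The other genes with large positive fold changes were Rpl29 and Rpl24. Rpl29, whose loss makes mice small with fragile bone, had 1769, 1014 and 1012 counts in the libraries labelled f/f and 1068, 875, 28 and 1421 in the controls. Control 3 thus stood at 1.56 CPM where the other 6 libraries ranged from 47.5 to 93.5 CPM, and this library set its log2 fold change of 0.59 (SE 0.84). Without control 3 the log2 fold change was 0.19. Of its windows 50.1% were shared with 27 other genes. Rpl24 measured 9.78, 10.3 and 7.87 CPM against 3.55, 8.09, 6.41 and 8.12 CPM (log2 fold change 0.51, SE 0.29, edgeR adjusted p = 0.525), with 75.8% of windows shared, and its row overlaps Zbtb11. Rpl34 is singled out after its values were seen. It had 71, 77 and 338 counts against 85, 57, 81 and 470, so 1 library of each group stood far above the rest, with a highest value 7.86 times the lowest.

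The whole list can be described by its median. Over the 80 genes the median log2 fold change stood at -0.22, against 0.01 over all genes tested, and 61 of the 80, or 76.2%, were below 0, against 48.7% of all genes. Both subunits had a median of -0.22, with 34 of 49 genes of the 60S and 27 of 31 of the 40S subunit below 0. Under the study's limma pipeline with quantile normalization and without a day block 46 of the 80 were below 0. The median was then -0.07, against -0.03 over all genes. With library size only 53 were below 0 and the median was -0.12, against 0.09 over all genes. Relative to all genes the family stood at -0.21 there and at -0.23 in the first fit. Without control 4 the median was -0.07, with 55 below 0, against 0.01 over all genes. Between labelled f/f 3 and control 3, of one cross, the median difference was 0.05 with 31 of 80 genes below 0, so the direction of the pooled median was not seen there, in 1 library a side.

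The family is short and rich in G and C, so genes of like length and composition were set beside it. The 80 genes had a median length of 694 bases and a median GC content of 52.2%, against 2801 bases and 50.5% for all genes tested. The 12403 other genes within the length range of the family had a median log2 fold change of -0.02. Among the 1378 other genes between the 10th and 90th percentile of both its length and its GC content, the median was -0.11 and 62.5% were below 0. Among the 937 that also matched its level, the median was -0.16 and 70.1% were below 0. With each library's trend against GC content removed, the median of the family stayed at -0.21 with 59 of 80 below 0, and with the trend against length removed it was -0.12 with 52 below 0.

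**Figure D4:**
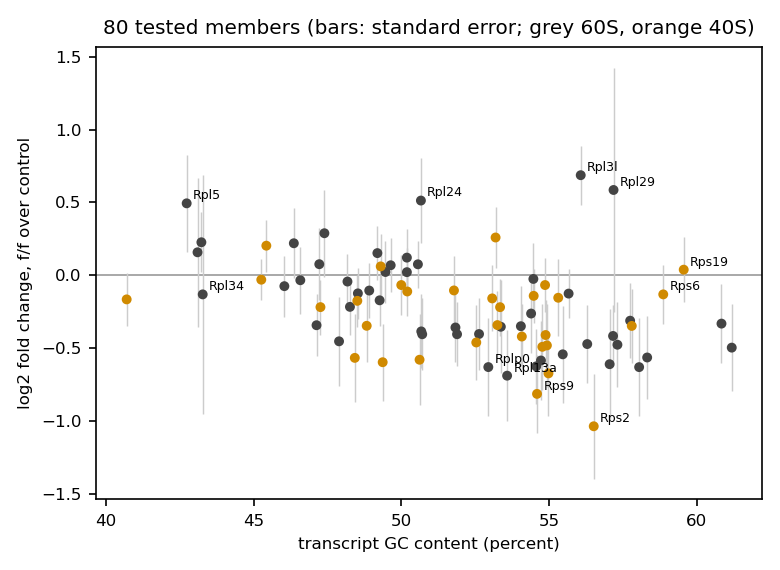
log2 fold change (libraries labelled Dmp1Cre.EfnB2f/f over control, edgeR, bars show the SE) against transcript GC content (percent) for the 80 tested ribosomal protein genes, 1 point per gene (grey 60S, orange 40S). Points to the right tend to lie lower, with exceptions such as Rpl3l, Rpl29, Rps19 and Rps23, and the median is -0.09 in the GC-poorer and -0.41 in the GC-richer 40 genes.

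Within the family the log2 fold change also followed GC content. The 40 genes with the higher GC content had a median log2 fold change of -0.41 with 36 below 0, and they held all 5 genes with an unadjusted p under 0.05 and all 6 whose groups did not overlap. The other 40 had a median of -0.09 with 25 below 0. GC content and log2 fold change had Pearson's r = -0.40 and Spearman's rho = -0.45 over the 80 genes. This was close to r = -0.42 and rho = -0.47 over the 14434 tested genes with a GC value. Without the exceptions Rpl3l and Rpl29 it was r = -0.53. The level per kb followed the log2 fold change as closely, with r = -0.42 and rho = -0.45 over the 80 genes. GC content and level per kb had r = 0.29, and their parts were not separated. These correlations are descriptions, since all genes share the 7 libraries.

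The direction of the ordering by GC content differed between libraries. Measured as log2(CPM + 0.5) minus the mean of the 7 libraries, the median deviation of the GC-richer 40 genes was -0.28, -0.16 and -0.15 in labelled f/f 1 to 3 and 0.24, -0.13, -0.22 and 0.74 in controls 1 to 4. That of the GC-poorer 40 was -0.12, -0.05 and 0.01 in the libraries labelled f/f and -0.21, -0.01, 0.03 and 0.23 in the controls. The GC-richer genes thus deviated lower than the GC-poorer ones in the 3 libraries labelled f/f and in controls 2 and 3, and higher in controls 1 and 4. Control 1 was high for GC-rich members such as Rps2 and Rpl8 and low for GC-poor members such as Rpl5, Rpl24 and Rpl23. Some members went the other way. Rps3, with a GC content of 48.4%, measured 876 CPM in control 1 and was higher only in control 4. Rps23 (53.2% GC) and Rps6 (58.9% GC) had their lowest values in control 1, 3.84 and 13.6 CPM. Control 4 was high for nearly all, and it was the highest library for 58 of the 80 genes, or 72.5%, against 32.5% of all genes tested. Control 1 was the highest for 0 and the lowest for 23, and labelled f/f 1 was the lowest for 32 (18.3% of all genes had their lowest value there).

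**Figure D5:**
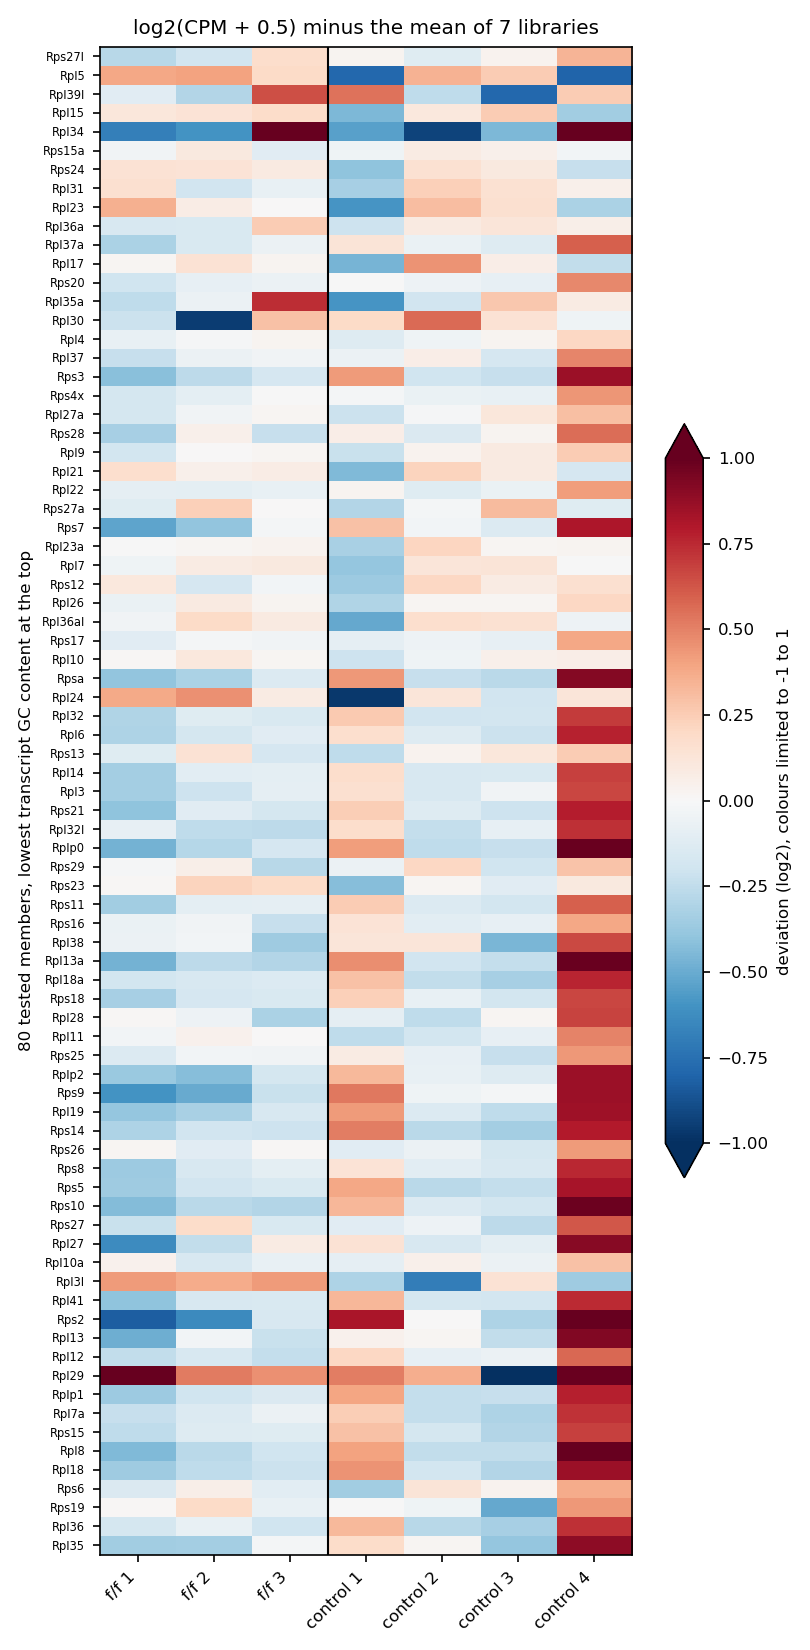
Level of each of the 80 tested ribosomal protein genes (rows, lowest GC content at the top) in each library (columns, f/f for libraries labelled Dmp1Cre.EfnB2f/f) as the deviation of log2(CPM + 0.5) from the gene's mean over 7 libraries, with colours limited to -1 to 1. The control 4 column is red in most rows, control 1 is mostly blue in the upper and mostly red in the lower rows, and Rpl29 and Rpl34 differ from their neighbours.

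Control 4 also had the most erythroid marker RNA, 55196 CPM, and the least RNA of 4 nuclear-retained transcripts, 4291 CPM. Control 1 followed with 25343 and 5896 CPM, while the other 5 libraries had 9636 to 23253 CPM of erythroid and 8586 to 14023 CPM of nuclear-retained RNA. These controls were also the highest for summed osteocyte and osteoblast markers, with 68628 CPM in control 1 and 33927 CPM in control 4. The other 5 libraries had 13810 to 23600 CPM of these markers. Cell cycle genes, 16 in the list, summed to 3472 to 3797 CPM in the libraries labelled f/f and to 3124 to 5253 CPM in the controls, with control 1 the lowest and control 3 the highest. The part of erythroid cells, of osteocytes and osteoblasts, of RNA composition and of proliferation in the levels of ribosomal protein genes was not tested.

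When the family's own counts were taken as the library size, so that only the proportions among its members were compared, 6 of the 80 genes had an unadjusted p under 0.05 and 0 an adjusted p under it. Rps9 was lower (log2 fold change -0.42, edgeR adjusted p = 0.0576), as were Rplp2 (-0.22), Rps2 (-0.61) and Rpl13a (-0.26), while Rpl3l (0.98) and Rps19 (0.42) were higher. These values are relative to the family's sum. In the fit over all genes the log2 fold change of Rps19 was 0.04.

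The 14 genes with a TOP start had a median of -0.35 (log2 fold change) with 12 below 0, and the 46 tested genes without one had a median of -0.15 with 35 below 0. TOP starts act on translation, which was not measured, and an annotated start can lie some bases from the one used. Of the 6 genes whose starts are printed, Rplp2 and Rps10 were among the genes with an unadjusted p under 0.05, whereas Rps6, Rps18, Rpl28 and Rps27 had log2 fold changes of -0.13, -0.42, -0.26 and -0.15 with edgeR adjusted p of 0.517 to 0.796.

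Genes that act with the ribosome were examined through lists, and 0 genes of any of them passed the adjusted threshold. The 6 ribosomal proteins and paralogs missed by the symbol rule had a median log2 fold change of -0.22 with 5 below 0. Among them Rack1, a scaffold of the 40S head, measured 333, 392 and 411 CPM against 667, 389, 395 and 1007 CPM, which is the pattern of Rplp0. Translation elongation factors and other TOP mRNAs, 14 genes, had a median of -0.26 with 9 below 0. Eef2, the translocation factor, measured 1783, 1863 and 1986 CPM against 3134, 1791, 1822 and 3965 CPM, again with controls 1 and 4 highest. Npm1, a nucleolar chaperone, measured 97.2, 79.8 and 67.7 CPM against 38.5, 93.5, 103 and 37.7 CPM, with those same controls lowest.

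The 25 initiation factors had a median of -0.08, the 40 ribosome biogenesis genes of -0.09 and the 10 genes of p53 surveillance of -0.08, with 0 genes of these lists at an unadjusted p under 0.05. Of the 17 genes of mTORC1 and TOP control, with a median of -0.10, Mlst8 and Eif4ebp2 were at an unadjusted p under 0.05. That is 11.8%, against 9.66% of all genes. Mlst8, a subunit of the mTOR complexes, measured 24.8, 26.6 and 29.7 CPM against 40.1, 31.7, 34.7 and 48.0 CPM (log2 fold change -0.51, SE 0.18, edgeR adjusted p = 0.511). Eif4ebp2, a repressor of cap-dependent initiation, had a log2 fold change of -0.50 (SE 0.22, edgeR adjusted p = 0.511). The 13 snoRNA host genes, several of which are also TOP transcripts, had a median of 0.11 with 11 above 0. The 74 genes of the mitochondrial ribosome, made of different proteins, had a median of -0.10 with 53 below 0 and 0 at an unadjusted p under 0.05.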

How the data were processed

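The authors mapped paired-end reads to mm10 with Rsubread and deposited raw counts per Entrez gene from featureCounts, without normalization. Versions and the strand setting are not given in the sources used here. Symbols came from the files of the single libraries. Genes had to reach 0.65 CPM in 3 or more libraries (16302 did), and the gene classes removed by the study were left out, so that 15098 were tested. The study's term for ribosomal genes was read as ribosomal RNA, so that ribosomal protein genes stayed in. Genotype was fitted over all 7 libraries in R 4.3.3 with the robust quasi-likelihood method of edgeR 4.0.16 and TMM factors. P-values were adjusted by Benjamini-Hochberg (threshold 0.05), and the script was tested on simulated data. DESeq2 1.42.0 and the study's limma 3.58.1 pipeline (log2 CPM, prior count 2) were alternatives. The day of collection, a block in the study, is not in the labels. Levels are TMM-normalized CPM. No source says that the mice were independent of litter, so p-values measure the spread between these libraries. Within each genotype the libraries differed beyond sampling noise (chi-square per degree of freedom 28.9 to 226).

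The genes named were Efnb2, 16 well-studied members, the paralog pairs, the members with the lowest p, the largest fold changes and the highest and lowest levels, and, in other lists, genes at an unadjusted p under 0.05. Of the last, marker and cell cycle genes are given as sums. Rpl4, Rpl12, Rpl23, Rpl34, Rack1, Eef2, Npm1, Rps18, Rpl28 and Rps27 were chosen after their values were seen. The members and lists were chosen with earlier results of these data known. GC content was computed from the GENCODE M21 transcript nearest in length to the files' gene length. Shared windows were computed from the nearest protein-coding transcript, where there was one. Its length could differ from the gene length, as for Rps6 (878 against 1394 bases) and Rpl39 (612 against 394 bases). Positions are from RefSeq GRCm38.p6 (25275 of 27179 genes matched). Shared windows and the GC correction were added after seeing the data. A planned comparison of paralog protein sequences was not run.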

Additional observations from a re-analysis of the deposited data

Results flagged for a closer look

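In 2 of 43 values examined, 1 of the 4 control libraries stood apart from the other 3 by Dixon's criterion. Independent values would give about 1 in 20 by chance. These values share the same 4 libraries, and Rpl34 was chosen after its values were seen, so that rate does not apply to them. Both were members with control 4 highest. For Rpl34 the gap to the nearest control was 0.933 of the whole range of the controls, and for Rps4x, the X-linked 40S protein gene, it was 0.914. Rps4x measured 102, 98.5, 98.1 and 140 CPM in controls 1 to 4 and 91.6, 96.5 and 103 CPM in the libraries labelled f/f. Over all 80 tested members, 5 passed the criterion, and control 4 was the highest library in all 5. A rate of 1 in 20 would give 4, but the members share their libraries and are not independent.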

How the results depend on the processing

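With edgeR, 0 members passed the adjusted threshold under every alternative, each library left out included. With DESeq2, run only on all 7 libraries, 0 members passed as well. The limma pipeline of the study, run with no day block, called 6 members, or 7.5% against 14.9% of all genes (Rpl3l higher, Rps2, Rps7, Rps9, Rpl30 and Rpl31 lower) and 42 genes of the other lists, and 0 members without its quality weights. Over the 12 possible day blocks it called 0 to 19 members and up to 86 genes of the other lists. The most were called with labelled f/f 3 and control 4 as the second day, 23.8% of members and 32.6% of all genes. The counts for the other lists were not set against the size of those lists. The number of members at an unadjusted p under 0.05 was 11 with DESeq2 (13.8%, all genes 12.6%) and 11 with limma and no day block (all genes 32.9%). It was 1 to 28 over the day blocks (1.25% to 35%, all genes 4.93% to 44.7%). It was 8 without a filter (9.88%, all genes 8.47%) and 8 with the GC trend removed (10%, all genes 13.5%). With 1 library left out it was 1 to 17 (1.25% to 21.25%, all genes 2.84% to 15.8%). Of all genes, DESeq2 called 24 higher and 48 lower, against 0 by edgeR.

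Replicate numbers did not pair the samples, since the deviations of same-numbered libraries had correlations of -0.15, 0.07 and -0.44. With the replicate block, 1 member (1.25%, all genes 3.82%) had an unadjusted p under 0.05. The median of the members was -0.06, against 0.04 over all genes. With parent cross as a block, which rests on labelled f/f 3 and control 3, the medians were 0.0455 for all members, 0.0341 for 60S and 0.0630 for 40S, and the log2 fold changes of Rps2 (0.146), Rplp0 (0.0630), Rplp1 (0.0826), Rps3 (0.0673), Rpl8 (0.0429) and Rpl5 (-0.0716) turned. Others that turned were Rps6 with the replicate block (0.0014) and with the GC trend removed (0.0358), Rps19 (-0.0990 to 0.215 with 1 library left out), and, in limma with no day block and at the highest of the day blocks, Rplp1 (0.0283 and 0.0230) and Rpl22 (0.0214 and 0.0401). With 1 library left out, the median of the members ranged from -0.28 to -0.07. The causes were not tested. Counts of single members ran from 0 to 30290 per library, and those with few counts are the least precise.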
